A study of Homo sapiens with 21 samples.

Results

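The catalytic-site inhibitors of EZH2 in this series are 5 compounds, CPI-0209, Valemetostat, tazemetostat, PF-06821497 and CPI-1205, treated as a class and compared gene by gene. Their members were chosen by treatment label alone and comprise 15 libraries, 3 per compound, of 21 in the whole series. The other 6 libraries are 3 from vehicle-treated tumours and 3 from tumours treated with MAK683, which is known to bind EED, a different subunit of the same complex, and is not a member. The tumours were xenografts of HT1376, an established line from a human bladder carcinoma. The hosts were female CB17 SCID mice, which lack T and B lymphocytes and were 6 to 8 weeks old at the start. Dosing began 11 to 15 days after the cells were placed, when tumours averaged 139 to 160 mm3. Each compound was given by mouth once a day at 75 mg/kg, and the day 15 dose preceded collection by 1 hour. All groups therefore share the line, the host, the route and the time, and the compounds share the dose in mg/kg. Drug levels in the tumours were not analysed here, so equal doses need not mean equal exposure. Nothing in the labels ties the libraries to separate animals, and p-values then measure only the spread between these libraries, which may be technical.

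EZH2 and its close relative EZH1 are the alternative catalytic subunits of polycomb repressive complex 2, which methylates lysine 27 of histone H3 at the promoters of silenced genes with the help of EED and SUZ12. Inhibitors of this class occupy the pocket for S-adenosylmethionine, the methyl donor, so the mark is lost gradually as chromatin is replaced and silenced genes can come back on. Tazemetostat and Valemetostat share a methylated pyridone joined through an amide, and differ in the core that carries it: a biphenyl with a morpholine in tazemetostat, and a chlorinated benzodioxole with a dimethylaminocyclohexyl group in Valemetostat. Valemetostat is also known to inhibit EZH1. Nothing about structure is stated here for the 3 compounds named by a code.

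The promoters of 4 genes on which the account below turns are shown as examples and differ widely in CG content. CXCL10 and GALNT14 followed the common order of the compounds, whereas NTS and ACVR1C were highest with PF-06821497. Each sequence holds the 250 bases before the RefSeq start (GRCh38.p14), 5′ to 3′ along the gene, with every CG dinucleotide in capitals. The windows are chr4:76023498-76023747 on the minus strand for CXCL10, chr2:31138441-31138690 on the minus strand for GALNT14, chr12:85874045-85874294 on the plus strand for NTS, and chr2:157628865-157629114 on the minus strand for ACVR1C.
CXCL10: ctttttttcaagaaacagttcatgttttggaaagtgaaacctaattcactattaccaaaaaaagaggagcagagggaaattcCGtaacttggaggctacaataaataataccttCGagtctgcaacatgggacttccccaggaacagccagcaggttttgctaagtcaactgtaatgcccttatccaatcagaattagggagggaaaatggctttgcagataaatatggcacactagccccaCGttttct
GALNT14: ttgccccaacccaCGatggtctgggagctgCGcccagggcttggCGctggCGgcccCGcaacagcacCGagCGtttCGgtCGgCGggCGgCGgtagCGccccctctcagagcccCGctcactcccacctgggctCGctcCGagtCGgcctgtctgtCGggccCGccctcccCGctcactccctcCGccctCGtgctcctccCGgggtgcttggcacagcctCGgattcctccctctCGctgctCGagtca
NTS: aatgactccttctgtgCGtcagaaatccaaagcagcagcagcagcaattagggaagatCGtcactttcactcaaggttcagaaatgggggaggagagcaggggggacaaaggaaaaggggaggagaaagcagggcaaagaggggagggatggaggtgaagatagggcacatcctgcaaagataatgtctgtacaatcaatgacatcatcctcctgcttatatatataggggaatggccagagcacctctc
ACVR1C: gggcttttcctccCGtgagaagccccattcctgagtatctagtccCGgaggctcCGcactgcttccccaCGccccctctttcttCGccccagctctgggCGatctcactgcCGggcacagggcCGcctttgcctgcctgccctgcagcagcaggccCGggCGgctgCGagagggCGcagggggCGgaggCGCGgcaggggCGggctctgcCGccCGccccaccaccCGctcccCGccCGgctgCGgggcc
CXCL10 held 3 CG dinucleotides and NTS 2, whereas GALNT14 held 26 and ACVR1C 22. The median over the 27193 promoters of the table was 11. The window of UBD, which also kept the order, held 0, and that of CCDC190, which broke it, held 2. The CXCL10 window had 1 match to the interferon-stimulated response element, searched on both strands and present in 3.07% of all promoters, and 2 matches to the NF-kB motif, present in 5.06% of all promoters. No summary of promoter sequence over the responding genes is given: 736 of the 1280 rises (57.5%) matched the table, too few for such a check.

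The deposited values are counts per gene. Library totals ran from 9725690 (CPI-0209 library 3) to 25771778 counts, and levels are given as CPM, counts scaled to the size of each library. In the smallest library 0 counts of a gene allow a level of up to 0.308 CPM, a limit set by 3 counts that covers counting error only. All 15 class libraries carried the carcinoma's keratins: KRT5 ran from 1078 to 3900 CPM and KRT8 from 1078 to 1807 CPM over the libraries. UPK2, a marker of terminal urothelial differentiation, ran from 1.17 to 7.67 CPM. CPI-0209 library 3 stood apart by skeletal muscle transcripts, with a median over 17 muscle markers of 7.06 on the log2 CPM scale where the other libraries ran from -1.08 to 4.55. The titles of PF-06821497 library 1 and CPI-1205 libraries 2 and 3 carry a resubmission mark. The count table disagrees with the titles for PF-06821497: there the mark is on the column of library 2 and not on that of library 1. Libraries are numbered by title, and the group of each is the same under both. Medians and their order without these libraries are given where they changed. In bulk tumour RNA, fewer cells of a type and less RNA per cell cannot be told apart. Host cells in these tumours are mouse cells, and hg38 is the only genome named. Mouse reads counted on human genes and expression by the tumour cells therefore cannot be told apart here.

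None of the genes for EZH2, EZH1, EED and SUZ12 passed the test for a class response. EZH2 stood at 72.6 ± 1.12 CPM (SD, n = 3) with vehicle, 87.7 ± 10.1 with CPI-0209, 89.8 ± 7.27 with Valemetostat, 86.3 ± 6.06 with PF-06821497, 79.6 ± 3.05 with tazemetostat and 72.8 ± 5.74 with CPI-1205. Its class difference, the mean log2 fold change of the 5 compounds against vehicle, was 0.19 ± 0.08 (SE), with an adjusted p of 0.0949 in edgeR's quasi-likelihood test. The class adjusted p was 0.519 for SUZ12, 0.231 for EZH1 and 0.279 for EED. EED differed among the 5 compounds (edgeR adjusted p 0.000246), from 54.9 CPM with CPI-0209 to 30.3 CPM with CPI-1205, and so did EZH1 (adjusted p 0.0152).

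Across the genome the class shifted genes in both directions, and the large changes were mostly rises. Of 21958 genes tested, 2148 (9.78%) were higher and 1998 (9.1%) lower in the class contrast at adjusted p under 0.05. A gene is called responding below if it also changed by at least 1 on the log2 scale in that contrast, which held for 1280 rises (5.83%) and 160 falls (0.729%). The contrast averages the 5 compounds, and a gene can pass through large changes with CPI-0209 and Valemetostat alone, so the order of the compounds among these genes is partly fixed by the choice. The contrast also uses vehicle, so a positive value against vehicle among the rises is partly fixed by the choice. Without vehicle library 3 the counts of genes higher and lower fell to 1230 and 709.

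The responding genes followed 1 order of compounds. The median log2 fold change against vehicle over the 1280 rises was 3.08 with CPI-0209, 2.53 with Valemetostat, 1.56 with PF-06821497, 0.62 with tazemetostat and 0.52 with CPI-1205. Over the 160 falls the medians had the same order, at -2.31, -1.96, -1.13, -0.42 and -0.40. Single libraries kept the first 3 compounds apart in the rises. Medians per library, against the vehicle mean, were 2.51, 2.86 and 2.87 with CPI-0209, 2.11, 1.94 and 2.47 with Valemetostat, and 1.51, 1.12 and 1.25 with PF-06821497. Tazemetostat libraries gave 0.62, 0.53 and 0.42, and CPI-1205 libraries 0.48, 0.52 and 0.25. The last 2 compounds overlapped, and the 3 vehicle libraries lay between -0.01 and 0.03. In the falls, CPI-0209 libraries (-2.49 to -1.97) and Valemetostat libraries (-2.01 to -1.62) overlapped. There CPI-1205 library 1, at -0.07, lay within the vehicle range of -0.20 to 0.18. The order of tazemetostat and CPI-1205 was not stable. It turned with the muscle level as a covariate and with the resubmission mark of the count columns as a covariate. It turned as well without CPI-1205 library 3 and without the 3 resubmission-marked libraries. The latter setting leaves CPI-1205 with library 1 only. Among the rises, the first 3 places did not change under any of the 33 alternative settings run. Adjustment within each pair could not change them, and every setting chose its genes by the class contrast.

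**Figure D1:**
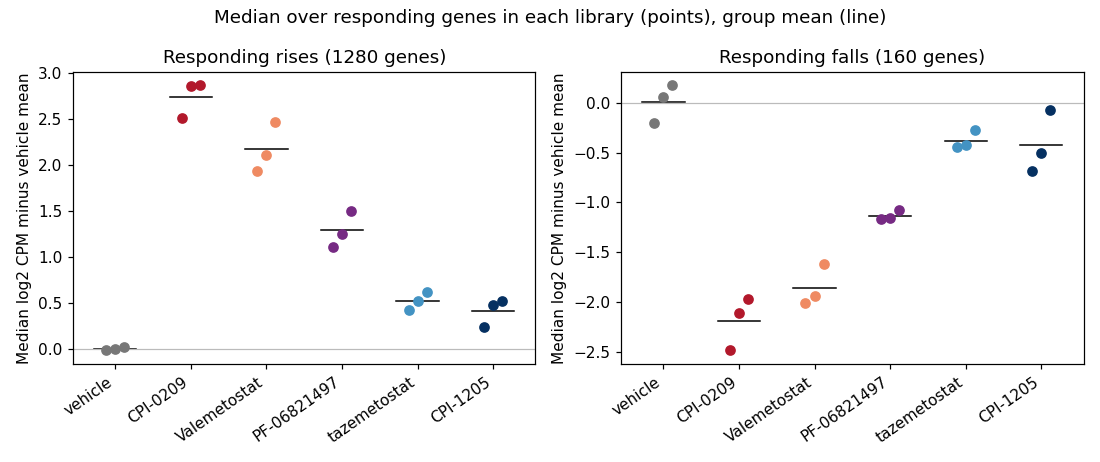
Median over the responding genes in each library, as log2 CPM minus the vehicle mean, for the 1280 rises (left) and the 160 falls (right). Each point is 1 library and each line the mean of 3: among the rises all CPI-0209 libraries lie above all Valemetostat libraries, and these above all PF-06821497 libraries, while tazemetostat and CPI-1205 overlap just above vehicle.

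Most genes kept this order one by one, apart from the 2 weakest compounds. The exact order of the 5 medians was found in 631 rises (49.3%), and a further 336 (26.3%) had only tazemetostat and CPI-1205 exchanged. The order was taken from the medians of these same genes, so these shares describe it and do not test it. CPI-0209 ranked first in 1116 rises, Valemetostat took the second place in 1108 and PF-06821497 the third in 1051. Tazemetostat took 1 of the last 2 places in 94.6% of the rises and CPI-1205 in 93.9%. Among the falls, 32 (20.0%) had the exact order and 62 (38.8%) the order with the last 2 exchanged. The compounds differed from each other in 1207 of the 1280 rises and 135 of the 160 falls in the edgeR test among the 5, which called 7415 of all genes (33.8%).

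CXCL10, a chemokine that attracts T cells and is induced by interferon, had a class rise of 4.06 ± 0.43 on the log2 scale (SE, edgeR adjusted p 6.51e-06), the largest among symbols with at least 1 CPM and no overlap between class and vehicle libraries. It lies on chromosome 4 from 76021117 to 76023497 (hg38). Its libraries held 0.77, 0.923 and 0.745 CPM with vehicle, and 97.2, 118 and 95.9 CPM with CPI-0209. With Valemetostat it reached 43.3, 35.4 and 120 CPM, with PF-06821497 15.9, 8.85 and 9.83 CPM, with tazemetostat 3.2, 2.25 and 2.33 CPM and with CPI-1205 1.59, 2.85 and 2.46 CPM. Every class library lay above every vehicle library, although tazemetostat (log2 fold change 1.66 ± 0.52) and CPI-1205 (1.49 ± 0.53) did not pass the test against vehicle across all genes, at edgeR adjusted p of 1.00 and 0.315. CPI-0209 and Valemetostat overlapped in CXCL10, and their difference was 0.65 with a 95% interval from -0.06 to 1.36.

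GALNT14, which starts O-linked glycosylation of proteins, descended through all 5 compounds. It stood at 0.407, 0.713 and 0.419 CPM with vehicle and rose to 27.6, 50.6 and 36.5 CPM with CPI-0209. Valemetostat gave 16.7, 10.2 and 24.7 CPM and PF-06821497 2.75, 1.68 and 2.24 CPM. Tazemetostat gave 0.919, 0.886 and 0.82 CPM and CPI-1205 0.636, 0.949 and 0.537 CPM, the latter overlapping vehicle. The step from CPI-0209 to Valemetostat was 1.15 ± 0.25 on the log2 scale (SE, n = 3 each, 95% interval 0.64 to 1.67). With p-values adjusted over all genes and all 10 pairs of compounds it was called (edgeR adjusted p 0.00247), and with adjustment within that pair it was not (0.085).

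NXN, a thioredoxin-like enzyme, and MMP10, a matrix-degrading protease, differed in where the response stopped along the order. NXN held 10.5, 11.7 and 11.1 CPM with vehicle, rose to 105, 181 and 139 CPM with CPI-0209 and to 55.6, 39.3 and 84.4 CPM with Valemetostat. PF-06821497 left it at 15, 12.1 and 11 CPM, overlapping vehicle (edgeR adjusted p 0.723). MMP10 was at 1.67, 3.31 and 2.61 CPM with vehicle and at 78.1, 79.1 and 69 CPM with CPI-0209, 69.2, 87.1 and 85 CPM with Valemetostat and 46.5, 27.8 and 34.8 CPM with PF-06821497. Its 3 tazemetostat libraries, at 6.79, 5.07 and 7.98 CPM, and its CPI-1205 libraries, at 4.72, 5.32 and 4.39 CPM, all lay above vehicle. The tazemetostat difference of 1.38 ± 0.22 had an edgeR adjusted p of 0.0815, the lowest of any gene for this compound.

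Other large rises were MEG3, an imprinted noncoding RNA, IL6, an inflammatory cytokine, MAOB, which oxidises monoamines, and the cancer-testis genes CT55 and PRAME, normally restricted to germ cells. Their class differences were 3.85, 3.38, 3.36, 3.31 and 3.00 on the log2 scale. UBD, which encodes the ubiquitin-like modifier FAT10, went from 0.118 ± 0.0642 CPM (SD, n = 3) with vehicle to 24.4 ± 6.45 with CPI-0209 and 11.6 ± 6.70 with Valemetostat. It reached 1.89 ± 0.859 CPM with PF-06821497, 0.288 ± 0.0801 with tazemetostat and 0.19 ± 0.0303 with CPI-1205.

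CALML5, a calmodulin-like protein of differentiating skin, was among the 5 largest falls without overlap between class and vehicle libraries. Vehicle libraries held 161, 172 and 155 CPM. CPI-0209 lowered it to 17.2, 18.7 and 18.5 CPM, Valemetostat to 27.6, 29.8 and 14.2 CPM and PF-06821497 to 61.1, 65.1 and 109 CPM. Tazemetostat libraries stood at 112, 99.8 and 144 CPM and CPI-1205 libraries at 105, 106 and 112 CPM. All 15 class libraries were below all 3 vehicle libraries. CAPN8, a calcium-dependent protease, also descended in steps, from 147 ± 17.6 CPM (SD, n = 3) with vehicle to 118 with tazemetostat, 132 with CPI-1205, 64.4 with PF-06821497, 39.9 with Valemetostat and 30.7 with CPI-0209.

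Per gene, Valemetostat reached a median of 83.2% of the CPI-0209 log2 fold change over the rises, PF-06821497 50.1%, tazemetostat 20.5% and CPI-1205 17.5%. When the rises were split by the size of the class change, the Valemetostat share ran from 82.0% (508 genes with a class change of 1 to 1.5) to 89.5% (31 genes above 4). The PF-06821497 share ran from 47.6% to 60.6%. The tazemetostat share went from 18.3% to 48.6% and that of CPI-1205 from 14.2% to 41.1% over the same bins. The class change used for this split contains each compound's own fold change, so a share that increases with it is partly fixed by the split. The shares also varied with the vehicle level: among the 230 rises with at most 0.1 CPM there, the tazemetostat share was 33.7% and the CPI-1205 share 31.6%, compared with 15.6% and 8.96% in the 43 rises above 10 CPM. Fold changes from a vehicle level near 0 depend on the prior count of the fit, so the first of these groups is the least certain.

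Against vehicle alone, the compounds separated into 3 with called genes and 2 with none. CPI-0209 called 4888 genes higher (22.3%) and 4129 lower (18.8%), Valemetostat 3303 (15%) and 2684 (12.2%), and PF-06821497 1309 (5.96%) and 789 (3.59%). Tazemetostat and CPI-1205 each called 0 genes higher and 0 lower (0%) in edgeR's quasi-likelihood test. Of the 21958 genes tested, 647 and 2713 had an unadjusted p under 0.05. The first count is below a share of 0.05 of all genes, which that limit alone would pass, and the second is above it. DESeq2 called 5 genes with tazemetostat and 12 with CPI-1205, and limma-voom 0 with either. All 5 comparisons use the same 3 vehicle libraries. PF-06821497 called 739 of the 1280 rises and 89 of the 160 falls, counts that the choice of responding genes partly fixes.

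To read the 2 weakest compounds without that choice, genes were picked from other libraries only. The 1655 genes higher in the mean of CPI-0209 and Valemetostat than with PF-06821497 had a median of 0.33 on the log2 scale with tazemetostat against vehicle, with 76.4% of them above 0 compared with 50.2% of all genes. CPI-1205 gave a median of 0.25, with 66.0% above 0 compared with 52.2% of all genes. The 290 genes chosen in the opposite direction had medians of -0.02 and -0.15. None of these genes passed the test across all genes with either compound.

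The 10 pairs of compounds were compared directly, with p-values adjusted over genes and pairs together. CPI-0209 differed from tazemetostat in 6733 genes (30.7%), from CPI-1205 in 6513 (29.7%) and from PF-06821497 in 4356 (19.8%). Valemetostat differed from CPI-1205 in 4271 (19.5%), from tazemetostat in 4043 (18.4%) and from PF-06821497 in 1604 (7.3%). PF-06821497 differed from CPI-1205 in 1641 (7.47%) and from tazemetostat in 1156 (5.26%). The pairs next to each other at both ends of the order, CPI-0209 with Valemetostat and tazemetostat with CPI-1205, differed in 876 (3.99%) and 366 (1.67%). Adjustment within each pair gave 0 genes for both of these pairs, with lowest adjusted p-values of 0.0833 and 0.264, although 2708 and 2265 genes had an unadjusted p under 0.05. The joint adjustment works as an unadjusted limit of 0.00719 for every pair, which is loose for a pair with few differences. Its calls for these 2 pairs are therefore given as provisional below.

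**Figure D2:**
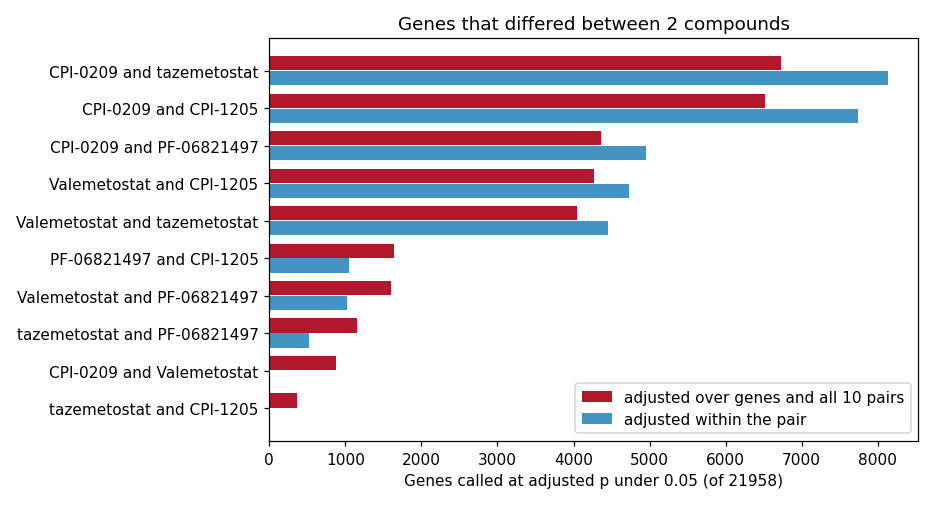
Number of genes, of 21958, that differed between each pair of compounds at adjusted p under 0.05, with adjustment over all 10 pairs (red) or within the pair (blue). The 2 pairs at the bottom have red bars of 876 and 366 genes and no blue bars. The 5 longest red bars, from 4043 to 6733 genes, all involve CPI-0209 or Valemetostat.

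Tazemetostat and Valemetostat, the pair with a named structural difference, differed at the same dose and time. Over all 21958 genes Valemetostat was called higher in 2373 and lower in 1670 (18.4% in either direction). The responding genes were chosen by a contrast that contains both compounds, so the direction of their difference is partly fixed by the choice. The median difference over the 1280 rises was 1.86 on the log2 scale in favour of Valemetostat, which was higher by estimate in 1275 of them and called higher in 1031. In MMP10 the difference was 3.60, with a 95% interval of 3.18 to 4.03, and in CXCL10 it was 4.67, with an interval of 3.80 to 5.54. Among the falls, chosen by the same contrast, Valemetostat was lower by estimate in 160 of 160 and called lower in 121. Tazemetostat and CPI-1205 were not told apart in most genes. Their median difference over the rises was 0.10, and the 95% interval of a rise reached a median of 0.92 to either side. That interval lay wholly between -1 and 1 in 386 of the 1280 rises, so for the others a difference of that size was not detectable or not excluded. CPI-0209 and Valemetostat differed by a median of 0.56 over the rises, and the interval lay within the same limits in 351.

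In the lists of genes that rose, the highest median was with CPI-0209 and the next with Valemetostat, while the order of the other 3 compounds varied between lists. The lists were chosen by function, and each is described by its count of members called beside that of all genes tested (9.78% higher and 9.1% lower in the class contrast, with a median class change of 0.01). MHC class II presentation genes, which display peptides to helper T cells, responded most: 13 of 16 rose in the class contrast and 0 fell. Their median log2 fold changes were 5.49 with CPI-0209, 4.63 with Valemetostat, 2.18 with PF-06821497, 0.55 with tazemetostat and 0.38 with CPI-1205. HLA-DRB1 went from 3.44, 4.53 and 2.42 CPM with vehicle to 113, 219 and 140 CPM with CPI-0209, 75.6, 49.2 and 138 CPM with Valemetostat and 17.6, 10.5 and 16.2 CPM with PF-06821497. With tazemetostat it stood at 5.23, 5.27 and 4.32 CPM and with CPI-1205 at 4.54, 6.93 and 2.01 CPM, overlapping vehicle. Reads of the HLA genes can be shared between near-identical copies, so the single-gene values are uncertain. Of the 12 responding class II genes, 10 had the exact order. Genes listed as markers of other cell types moved with these genes. The 14 macrophage and granulocyte markers tested had a median log2 fold change of 1.71 with CPI-0209, with 11 called higher and 1 lower. Their sum went from 177 to 211 CPM with vehicle to 209 to 266 CPM with CPI-0209. ITGAM, which held most of the vehicle sum, went from 112 to 144 CPM down to 70.0 to 75.4 CPM. The macrophage markers C1QA, C1QC and TYROBP stood at 0 in all vehicle libraries and at most at 0.19, 0.111 and 0.278 CPM with CPI-0209. Other members of the list were higher with CPI-0209. CD163 went from 0.042 to 0.093 CPM up to 1.22 to 2.24 CPM, and ADGRE1 from 0.497 to 1.16 CPM up to 6.17 to 9.35 CPM. The 12 endothelial markers summed to at most 39.5 CPM with vehicle and 105 to 139 CPM with CPI-0209, with 7 called higher and 2 lower. PECAM1 went from 1.68 to 2.49 CPM up to 24.3 to 32.4 CPM, and CDH5 from 1.40 to 2.68 CPM down to 0.612 to 1.05 CPM. The 4 lymphocyte markers summed to 2.10 to 2.85 and 7.08 to 7.70 CPM, in a host that lacks T and B lymphocytes. The part of any of these markers in the class II levels was not tested.

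Cytokines and chemokines rose in 30 of 44 and fell in 1, with medians of 3.09, 2.11, 1.05, 0.32 and 0.10 in the order of the compounds from CPI-0209 to CPI-1205. CXCL1, which attracts neutrophils, stood at 0.945 CPM with vehicle and 43.2, 20.4, 6.43, 1.64 and 1.43 CPM in that order. IL32, an inflammatory cytokine, held 55.3, 52 and 33.8 CPM with vehicle and 357, 550 and 380 CPM with CPI-0209. Without vehicle library 3 the count of rising cytokines was 20. MHC class I presentation genes, which include the peptide transporter TAP1, rose in 12 of 22 (7 without vehicle library 3) and fell in 1, with smaller medians of 0.78, 0.66, 0.21, 0.03 and 0.12. TAP1 went from 89.8 CPM with vehicle to 247 CPM with CPI-0209 and 203 CPM with Valemetostat, with PF-06821497 at 105 CPM, tazemetostat at 92.5 CPM and CPI-1205 at 93.1 CPM. The 17 of 55 interferon-stimulated genes that rose (5 without vehicle library 3), with 0 falling, had list medians of 0.55, 0.53, 0.01, -0.02 and 0.15: for this list CPI-0209 and Valemetostat were level and PF-06821497 was near 0.

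HOX genes and other developmental transcription factors, the textbook targets of polycomb repression, had wide spacing. Of 39 HOX genes listed, 26 passed the low-count filter, which a gene can pass through a group where it is high. Of these 26, 25 were called higher against vehicle with CPI-0209 (all genes 22.3%) and 5 with Valemetostat (15%). With PF-06821497, tazemetostat or CPI-1205 the count was 0. The count with CPI-0209 is therefore partly fixed by the filter. The list medians were 3.01, 1.16, 0.02, 0.11 and -0.02. HOXB7, which patterns the body axis, held 0.498, 0.168 and 0.14 CPM with vehicle and 3.62, 8.28 and 9.56 CPM with CPI-0209. It was at 1.17, 1.28 and 2.32 CPM with Valemetostat, 0.883, 0.301 and 0.439 CPM with PF-06821497 and 1.17 CPM or less with tazemetostat and CPI-1205. The groups of CPI-0209 and Valemetostat did not overlap, and the difference was 2.16 with a 95% interval of 1.25 to 3.08. CPI-0209 was called above Valemetostat in 12 of the 26 HOX genes over all pairs (all genes 3.99% in either direction) and in 0 within that pair. Markers of muscle and fibroblasts moved with this result. The 17 muscle markers summed to 616 to 688 CPM with vehicle and 460 to 2232 CPM with CPI-0209. Their median log2 fold change with CPI-0209 was 3.44, with 8 called higher and 1 lower. TNNT3, which held most of the vehicle sum, went from 383 to 451 CPM down to 190 to 217 CPM. DES went from 0.461 to 8.47 CPM up to 11.0 to 160 CPM. The 21 fibroblast markers summed to 3701 to 5785 CPM with vehicle and 2726 to 5864 CPM with CPI-0209, with 12 called higher and 3 lower. Their median log2 fold change with CPI-0209 was 1.94. FN1, which held most of the vehicle sum, went from 2196 to 3388 CPM down to 513 to 631 CPM. COL6A1 went from 0.995 to 1.72 CPM up to 47.3 to 115 CPM. The part of muscle or fibroblast markers in the HOX levels was not tested. With the muscle level as a covariate the CPI-0209 median of the HOX list was 1.97, and without CPI-0209 library 3 it was 2.40. Counts in the class contrast were small for this list, at 3 of 26, and 0 without vehicle library 2.

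Of 157 developmental transcription factors listed, 92 passed the low-count filter, again possible through a group where a gene is high. Of these 92, 21 rose and 6 fell in the class contrast (7 and 1 without vehicle library 3). The medians were 1.80, 1.02, 0.19, -0.01 and -0.02. TWIST1, a driver of epithelial-to-mesenchymal transition in development, went in steps from 4.16, 4.11 and 5.17 CPM with vehicle to 29.1, 47.2 and 50.2 CPM with CPI-0209 and 24.6, 16.1 and 25.5 CPM with Valemetostat. PF-06821497 gave 11.9, 9.8 and 10.8 CPM, tazemetostat 6.27, 5.88 and 5.95 CPM and CPI-1205 4.09, 7.05 and 5.01 CPM. FOXA2, an endodermal factor, broke off earlier: it was 1.75 CPM with vehicle, 13.3 with CPI-0209, 7.41 with Valemetostat and 3.35 with PF-06821497, but 1.31 with tazemetostat and 1.53 with CPI-1205.

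Neuronal and synaptic genes and cancer-testis genes had flatter ladders than the HOX genes and developmental factors. The neuronal list rose in 17 of 40, with medians of 1.88, 1.38, 0.70, 0.21 and 0.25, and Valemetostat was at or above CPI-0209 in STMN3 (25.9 against 23.9 CPM) and TUBB3 (7.02 against 6.65 CPM), which encode microtubule proteins. The cancer-testis list rose in 20 of 44 and fell in 2, with medians of 0.87, 0.79, 0.49, 0.16 and 0.26. As a share of the CPI-0209 list median, PF-06821497 reached 57.0% for cancer-testis genes, 39.6% for MHC class II, 37.2% for neuronal genes, 34.0% for cytokines, 10.4% for developmental factors and 0.637% for HOX genes. These shares describe the lists, and differences between lists were not tested.

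**Figure D3:**
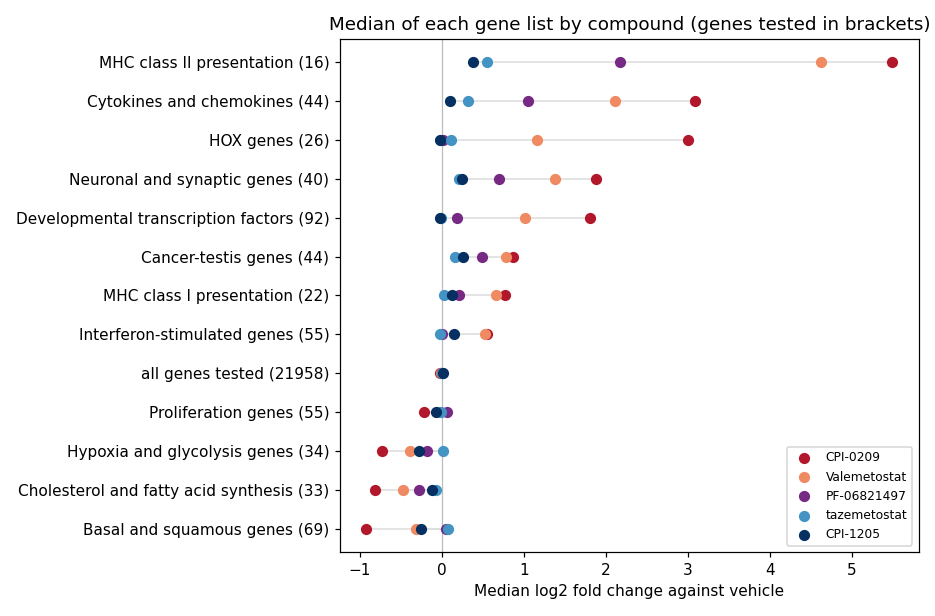
Median log2 fold change against vehicle of each gene list (rows, with the number of genes tested) for each compound (colours). The distance from PF-06821497 to Valemetostat is widest for MHC class II (2.18 to 4.63), PF-06821497 sits at 0.02 for HOX genes, and the list of all genes lies at 0 for every compound to within 0.02.

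Lists that fell did so mainly with the 2 strongest compounds. Basal and squamous genes, which include the cornified-layer proteins FLG and CALML5, fell in 23 of 69 and rose in 2, with medians of -0.92, -0.31, 0.05, 0.07 and -0.25. FLG was 78.7 CPM with vehicle and 8.67 CPM with CPI-0209, 13.1 with Valemetostat, 29.9 with PF-06821497, 55.0 with tazemetostat and 55.8 with CPI-1205. Genes of cholesterol and fatty acid synthesis fell in 16 of 33 (9 without vehicle library 3) and rose in 0, with medians of -0.81, -0.47, -0.27, -0.08 and -0.11. SCD, which desaturates fatty acids, dropped from 694, 698 and 841 CPM to 227, 145 and 168 CPM with CPI-0209. Hypoxia and glycolysis genes fell in 11 of 34 (3 without vehicle library 2), with medians of -0.72, -0.39, -0.18, 0.02 and -0.28. Here CPI-1205 lay below PF-06821497 in list median. Proliferation genes rose in 1 of 55 and fell in 0, and the list median was -0.21 with CPI-0209. The remaining lists were closer to the share of all genes. Luminal urothelial genes rose in 6 of 32 and fell in 6, xenobiotic and NRF2 genes rose in 1 of 34 and fell in 8, and immediate early and heat shock genes rose in 4 of 32 and fell in 6. Targets of p53 fell in 6 of 25, stress genes rose in 1 of 23 and fell in 2, and PRC2 subunits and cofactors rose in 2 of 15 and fell in 1. The 2 rises of the last list were CXorf67, an inhibitor of PRC2, and EPOP, and the fall was AEBP2, all accessory proteins of the complex.

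Genes that broke the common order were few. A gene was counted as breaking it if a pair of compounds was called in the direction opposite to the order, and this held for 14 of the 1280 rises and 3 of the 160 falls with adjustment over all pairs. In 7 rises PF-06821497 was above CPI-0209: CCDC190, PMP2, PCDH9, PIK3C2G, NTS, ACVR1C and DEFB1. PMP2 was also higher with Valemetostat than with CPI-0209. The other 7 rises and the 3 falls set tazemetostat against CPI-1205. For that pair only 10 rises and 1 fall were called in the direction of the order, so its calls did not favour either direction clearly. With adjustment within each pair all 7 of the first kind were still called, with CXorf57 and COL21A1 added, and none of the second kind. The pair of CPI-0209 and PF-06821497 was called in the direction of the order in 897 rises.

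CCDC190, a coiled-coil protein of little known function on chromosome 1 from 162824458 to 162868815, was among the genes that broke the order. It held 4.39, 5.96 and 4.7 CPM with vehicle and 10.7, 3.79 and 5.16 CPM with CPI-0209, groups that overlapped. PF-06821497 raised it to 19.4, 31.4 and 21.5 CPM, above every library of the other compounds. Valemetostat lay between, at 13.1, 17.5 and 7.5 CPM, and tazemetostat (11.6, 6.04 and 9.45 CPM) and CPI-1205 (4.77, 9.24 and 9.22 CPM) overlapped CPI-0209. The difference of CPI-0209 from PF-06821497 was -1.86 ± 0.36 on the log2 scale (SE, edgeR adjusted p 0.00128 over all pairs, 95% interval -2.62 to -1.10).

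PCDH9, a cell adhesion protocadherin, repeated this shape. Its libraries held 1.77, 1.3 and 1.4 CPM with vehicle, 4.91, 2.18 and 3.34 with CPI-0209, 6.02, 5.53 and 4.19 with Valemetostat and 7.11, 7.95 and 8.43 with PF-06821497. Tazemetostat, at 3.24, 3.95 and 3.8 CPM, was level with CPI-0209. All 3 PF-06821497 libraries exceeded all others. ACVR1C, a receptor of activin and nodal signals, had 0.575 to 1.05 CPM with CPI-0209, 1.26 to 1.58 with Valemetostat and 1.36 to 1.82 with PF-06821497. Its tazemetostat libraries, at 0.926 to 1.04 CPM, overlapped those of CPI-0209. NTS, the precursor of the gut peptide neurotensin, had 0.478 to 0.613 CPM with CPI-0209 and 1.3 to 1.8 CPM with PF-06821497. PIK3C2G, a lipid kinase, had 0.46 to 0.86 CPM with CPI-0209 and 1.29 to 2.18 with PF-06821497, and DEFB1, an antimicrobial peptide of epithelia, 6.69 to 9.46 and 8.88 to 18.6 CPM. In DEFB1 the 2 groups overlapped. Levels of NTS, ACVR1C and PIK3C2G were low, and no class library held more than 45 counts of any of them.

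**Figure D4:**
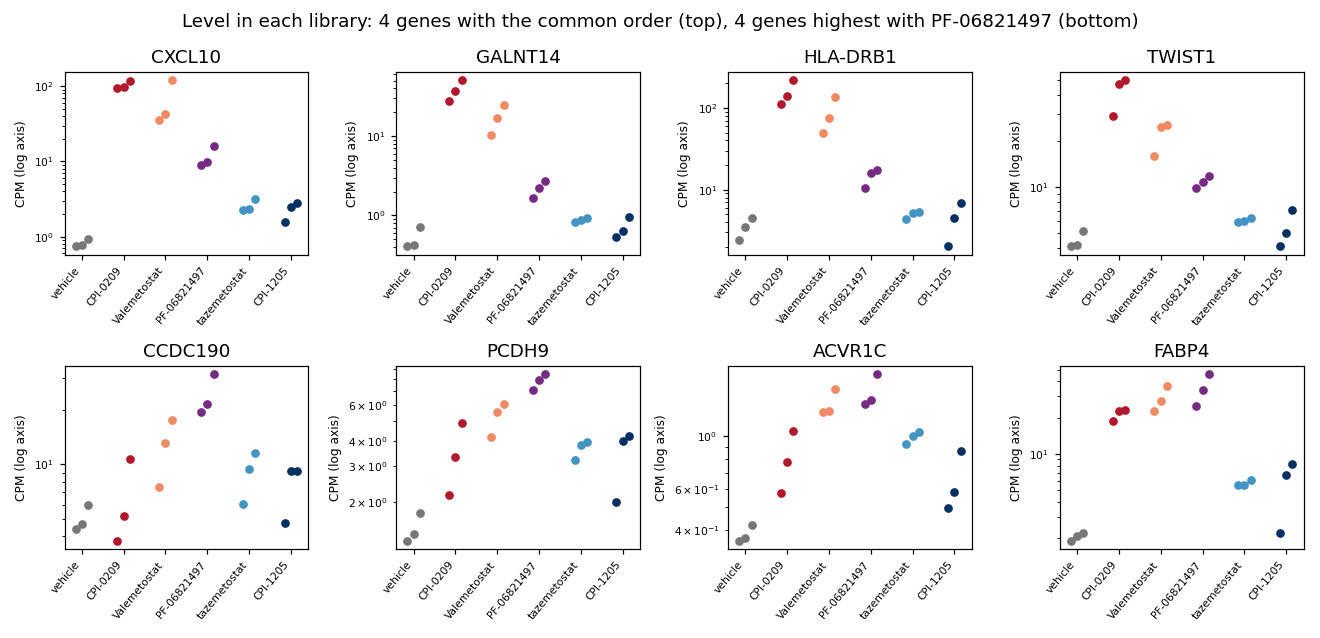
Level in each library, in CPM on a log axis, of 4 rises with the common order (top row) and 4 rises highest with PF-06821497 (bottom row), 3 points per group. CXCL10 descends from 95.9 to 118 CPM with CPI-0209 to 2.85 CPM or less with CPI-1205, whereas CCDC190 climbs from CPI-0209 to PF-06821497, whose 3 points lie at 19.4 to 31.4 CPM.

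PMP2, a fatty acid carrier of myelin, lies on chromosome 8 beside other genes of fatty acid binding proteins, of which FABP5 and FABP12 also differed between CPI-0209 and PF-06821497. PMP2 held 1.58, 1.55 and 1.4 CPM with vehicle, 5.35, 2.36 and 3.63 with CPI-0209, 6.02, 16.6 and 7.33 with Valemetostat and 19.5, 15.2 and 16.8 with PF-06821497. FABP4, the adipocyte and urothelial carrier, was 2.08 CPM with vehicle, 21.5 with CPI-0209, 28.9 with Valemetostat and 34.9 with PF-06821497, and its difference between CPI-0209 and PF-06821497 did not pass (edgeR adjusted p 0.104 over all pairs). FABP5, the epidermal carrier, was below vehicle with CPI-0209 (537 against 904 CPM, edgeR adjusted p 0.00111) and at 1202 CPM with PF-06821497 (adjusted p 0.135). The difference between these 2 compounds was -1.16 on the log2 scale (edgeR adjusted p 5.34e-05 within the pair). FABP12, a further gene of the family, stood at 0.652 CPM with vehicle, 0.399 with CPI-0209 and 1.20 with PF-06821497, a difference of -1.65 (adjusted p 0.00213 within the pair). The cluster was examined after the values of PMP2 and FABP4 were seen. FABP4 stands in the adipocyte marker list, whose 4 tested members summed to 9.27 to 9.78 CPM with vehicle and 36.4 to 55.8 CPM with PF-06821497. The sums were similar with CPI-0209 (40.7 to 49.2 CPM) and Valemetostat (41.2 to 49.2 CPM). FABP4 held most of the PF-06821497 sum, at 25.1 to 45.6 CPM. LPL, another member, went the other way between compounds, at 16.9 to 21.3 CPM with CPI-0209 and 4.72 to 7.31 CPM with PF-06821497. The defining adipocyte marker ADIPOQ had 1 count over all 21 libraries.

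PF-06821497 gave the highest of the 5 estimates in 48 of the 1280 rises, including S100A2, a calcium-binding protein of squamous cells, and ANKRD30A, a breast differentiation antigen. S100A2 was 168 CPM with vehicle, 422 with CPI-0209, 445 with Valemetostat and 532 with PF-06821497, and the libraries of these 3 compounds overlapped. Seen over all rises, PF-06821497 was called above vehicle and below CPI-0209 in 473 genes, called above vehicle and not told from CPI-0209 in 257, and called above both in 9 (adjustment within the pair). In 461 rises it was below CPI-0209 and not called against vehicle.

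The breaks between tazemetostat and CPI-1205 are provisional, because none was called with adjustment within that pair. FBN1, a microfibril protein of the extracellular matrix, held 281, 224 and 325 CPM with vehicle, 218, 241 and 198 with tazemetostat and 129, 163 and 134 with CPI-1205, and the last 2 groups did not overlap. The difference was 0.63, with a 95% interval of 0.23 to 1.02 (edgeR adjusted p 0.029 over all pairs and 0.409 within the pair). FBN1 is also in the fibroblast marker list, whose 21 members summed to 3701 to 5785 CPM with vehicle, 3864 to 4848 with tazemetostat and 2266 to 4242 with CPI-1205. CCND2, a cyclin of early cell-cycle entry, was 0.645 CPM with tazemetostat and 1.31 with CPI-1205, compared with 6.97 with CPI-0209 and 0.789 with vehicle. The remaining breaks of this kind were ACTL8, ACTBP8, AC058791.1, MT1G, CLEC11A and SMPD4P1 among rises, and LINC01181 and HIF1A-AS2 among falls. ACTBP8 and SMPD4P1 are pseudogenes that can share reads with their parents.

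LOX, which cross-links collagen, kept the common order but left CPI-1205 on the far side of vehicle. It held 2.76, 2.1 and 2.7 CPM with vehicle and 1.86, 1.98 and 1.16 CPM with CPI-1205, while the other compounds ranged from 3.32 CPM (tazemetostat) to 14 CPM (Valemetostat). CPI-1205 was lower than each of the other 4 compounds over all pairs in 47 genes, LOX and MUC22 among them. The difference of tazemetostat from CPI-1205 in LOX was 1.20, with a 95% interval of 0.45 to 1.95, and was not called within the pair (edgeR adjusted p 0.409).

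Genes that set 1 compound apart from the 4 others were largely those of CPI-0209, which was higher than all in 652 genes and lower than all in 122 over all pairs, and in 0 with adjustment within pairs. Of the 652, 213 were responding rises. MYH6, a heart and muscle myosin, was among them without rising in the class, and it was 0.334, 4.54 and 1.62 CPM there and 1.54, 0.042 and 0.512 CPM with vehicle. The groups of CPI-0209 and vehicle overlapped in it. The part of muscle tissue in those 652 genes was not tested. Valemetostat stood alone in CYP1A1, a drug-oxidising enzyme, at 0.7, 0.592 and 0.772 CPM. CPI-0209 libraries held 2.01, 1.03 and 2.29 CPM of it and vehicle libraries 3.08, 3.61 and 3.45 CPM. All 3 Valemetostat libraries were below every other class and vehicle library, with a difference of 1.34 from CPI-0209 (95% interval 0.50 to 2.17, edgeR adjusted p 0.0278 over all pairs and 0.135 within the pair).

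PF-06821497 stood alone in LRP5, a co-receptor of Wnt signals, and this was the 1 gene of its kind called with either adjustment. PF-06821497 libraries held 46.9, 45.9 and 49.7 CPM, below all libraries of vehicle (68.6, 68 and 71.5 CPM), CPI-0209 (60, 59.9 and 55.4 CPM) and the other compounds, which ranged from 56.9 to 72.8 CPM. The fold change was modest, -0.55 ± 0.10 on the log2 scale against vehicle (SE, edgeR adjusted p 0.000769). KLK8, ESD and IQCD were called in opposite directions against vehicle by CPI-0209 and PF-06821497. KLK8, a skin protease, and ESD, an esterase, were lower with CPI-0209 (20.5, 22.8 and 15.1 CPM, and 30.1, 31 and 27 CPM) and higher with PF-06821497 (36.1, 36.1 and 52.4 CPM, and 41.9, 45.4 and 47.3 CPM) than with vehicle (27, 29.5 and 25.2 CPM, and 38.8, 35.9 and 31.7 CPM). IQCD was the reverse, at 14.6 CPM with CPI-0209 and 7.30 with PF-06821497 against 10.6 with vehicle. No gene was called in opposite directions by CPI-0209 and Valemetostat or by Valemetostat and PF-06821497.

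Few rises were level across the class. A total of 73 rises did not differ among the 5 compounds, and 3 of these reached a mean of 5 CPM over the class: C5orf58, RNASE1 and SEMA3D. C5orf58 held 2.58, 2.14 and 1.58 CPM with vehicle and 3.12 to 7.47 CPM in all 15 class libraries, with estimates from 1.00 (tazemetostat) to 1.71 (Valemetostat) on the log2 scale. RNASE1, a secreted ribonuclease of endothelium, and SEMA3D, an axon and vessel guidance factor, had wide spreads, and their class libraries overlapped vehicle. MAK683, set against the mean of the 5 compounds, differed in 411 genes (1.87%), 398 of them higher. They include 223 of the 1280 rises, with a median difference of 0.46 over the rises, and 0 of the falls.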

How the data were processed

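Whole tumours were profiled by RNA-seq in 21 libraries, 3 per group, from a paired-end, strand-specific protocol per the labels. The authors deposited 1 table of raw counts for 57500 genes. STAR 2.7.3a, RSEM 1.3.1 and hg38 are named in the submitters' processing notes, while no source used here names the counting program or annotation. Gene identifiers were matched to GENCODE 29 symbols for 56898 genes. From these counts, 21958 genes passed edgeR's filterByExpr. They were fitted in 1 robust quasi-likelihood model (edgeR 4.0.16, limma 3.58.1, R 4.3.3) with TMM scaling, a term per group and no covariate, with 14 residual degrees of freedom. CPM are counts per 1e+06 of the TMM-scaled library total. The class contrast is the mean of the 5 compound terms minus vehicle. P-values were adjusted by Benjamini-Hochberg over all genes, and for pairs over genes and 10 pairs together, with adjustment within a pair as an alternative. The fit was tested on simulated data.

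The compounds and gene lists were chosen with earlier results of these data known. Named genes are the catalytic and core subunits, the largest class rises and falls without overlap with vehicle, the genes that best kept or most broke the common order, level rises, genes particular to 1 compound, and up to 4 members of each list by class p-value. KRT5, KRT8, UPK2, S100A2, IQCD, CXorf57, COL21A1, DEFB1, FABP5 and FABP12 fall outside this rule or its limit and were named after their values were seen. Alternatives covered low-count filters, scaling, DESeq2 1.42.0, limma-voom, the replicate block, muscle level, resubmission marks, the size limit and each library left out. Figures used matplotlib 3.10.9. Replicate numbers did not pair the samples.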

Additional observations from a re-analysis of the deposited data

How the results depend on the processing

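In every alternative setting, breaks were counted against the order of medians found in that setting. That order had tazemetostat and CPI-1205 exchanged in the settings where their order turned. Without a low-count filter, CPI-0209 and Valemetostat differed in 1547 genes and tazemetostat and CPI-1205 in 828, tazemetostat called 46 genes against vehicle and CPI-1205 358, and 28 rises and 9 falls broke the order. Upper-quartile scaling gave 1311 genes lower in the class and 1 gene for tazemetostat. DESeq2 called 5 genes for tazemetostat and 12 for CPI-1205 against vehicle. Without MAK683 1 fall broke the order. With the muscle level as a covariate, tazemetostat and CPI-1205 differed in 186 genes and 1 fall broke the order. With the resubmission mark of the titles as a covariate these values were 1254 and 8, with 1 gene for tazemetostat and 30 for CPI-1205 against vehicle. With the mark of the count columns, the median rise of CPI-1205 was 0.73 and 1 fall broke the order. Without the 3 libraries marked in their titles (PF-06821497 library 2, marked in the count table, was kept) that median was 0.77, tazemetostat and CPI-1205 differed in 1013 genes and called 3 and 226 against vehicle, and 24 rises and 31 falls broke the order. The cause was not tested.

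Adjustment within each pair gave 0 genes for CPI-0209 with Valemetostat and for tazemetostat with CPI-1205, 1015 for Valemetostat with PF-06821497, 528 for tazemetostat with PF-06821497 and 1053 for PF-06821497 with CPI-1205, with 9 rises and 0 falls against the order. A class change of at least 2 left 411 rises and 8 falls, with median rises of 4.63, 3.81, 2.35, 1.06 and 0.94 in the order from CPI-0209 to CPI-1205 and median falls of -4.11, -3.87, -2.06 and -0.73 for the first 4. Then 0 rises and 1 fall broke the order, and 0 rises were above CPI-0209 with PF-06821497. With no minimum size there were 2148 rises and 1998 falls, with median rises of 2.19, 1.78, 1.06, 0.40 and 0.35 and median falls of -0.82, -0.66, -0.43 and -0.13. In that case 29 rises and 12 falls broke the order, and 15 rises were above CPI-0209 with PF-06821497.

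The numbers of the replicates did not pair the samples: over 63 pairs with the same number, deviations had a mean correlation of -0.052. With the replicate block, 1973 genes were higher and 1766 lower in the class.

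With 1 library left out in turn, genes higher in the class numbered 1230 to 2278 and genes lower 709 to 2283, both lowest without vehicle library 3 (1345 and 1188 without vehicle library 2). Responding falls numbered 101 to 200, and PF-06821497 called 1041 to 2426 genes against vehicle, tazemetostat 0 to 2 and CPI-1205 0 to 4. CPI-0209 and Valemetostat differed in 265 to 1262 genes, lowest without CPI-0209 library 3. The other pairs that moved were Valemetostat with PF-06821497 (850 to 1830), tazemetostat with PF-06821497 (680 to 1375), tazemetostat with CPI-1205 (100 to 682) and PF-06821497 with CPI-1205 (1018 to 2620). The median fall of PF-06821497 ran from -1.25 to -1.10. The order was broken by 8 to 19 rises and 0 to 5 falls, and 4 to 9 rises were above CPI-0209 with PF-06821497, 4 of them without vehicle library 3 or CPI-0209 library 2.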
